A study of Mus musculus with 8 samples.

Results

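The angiopoietins, the angiopoietin-like proteins (ANGPTL) and the vascular endothelial growth factors (VEGF) are secreted ligands of blood and lymphatic vessels and of lipid metabolism. The 9 genes described here, Angpt1, Angpt2, Angptl1, Angptl2, Angptl4, Vegfa, Vegfb, Vegfc and Vegfd, were taken by gene name from a table of 53801 mouse genes. Each name matched 1 row, and all 9 were among the 15643 genes with enough reads to be tested. RNA was taken from YFP+ CD45- CD31- stromal cells that had been sorted out of mouse small intestine, that is, cells with the YFP reporter and without the leukocyte marker CD45 and the endothelial marker CD31. The cells were split by surface PDGFRα, the platelet-derived growth factor receptor alpha carried by many intestinal fibroblasts, into 4 YFP+PDGFRα- and 4 YFP+PDGFRα+ libraries. Both fractions came from mice of 1 genotype, LTβRfloxPDGFRα/YFP, which carries a floxed lymphotoxin beta receptor allele, so both share it. The sources used here do not say whether the receptor was deleted, what drives YFP, how old the mice were, or whether 1 library stands for 1 mouse. The p-values below therefore measure the spread between libraries, which may be in part technical.

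ANGPT1, released by cells around vessels, activates the endothelial receptor TIE2 (gene Tek) and is known for stabilising vessels, whereas ANGPT2 acts on the same receptor as an activator or an antagonist depending on context. VEGFA drives blood vessel growth through VEGFR2 (gene Kdr), and VEGFC and VEGFD act through VEGFR3 (gene Flt4), with VEGFC the main lymphatic growth factor, including for the lacteals that take up fat in intestinal villi. The ANGPTL proteins resemble angiopoietins but are not TIE2 ligands, and ANGPTL4 is best known as an inhibitor of lipoprotein lipase.

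Vegfc and Vegfd encode related ligands of 1 receptor, and the DNA before their starts differs in makeup. To show this, the stretches upstream of the first exons are printed 5′ to 3′ on the + strand of GRCm38.p6, from the RefSeq promoter table, with each CG in capitals.
Vegfc, chr8:54077282-54077531: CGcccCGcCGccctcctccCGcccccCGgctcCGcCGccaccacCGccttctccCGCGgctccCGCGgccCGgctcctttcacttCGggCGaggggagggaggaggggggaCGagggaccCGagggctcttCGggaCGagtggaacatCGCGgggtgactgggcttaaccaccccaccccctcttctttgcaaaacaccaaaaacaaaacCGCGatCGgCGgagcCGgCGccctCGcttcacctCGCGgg
Vegfd, chrX:164373272-164373377: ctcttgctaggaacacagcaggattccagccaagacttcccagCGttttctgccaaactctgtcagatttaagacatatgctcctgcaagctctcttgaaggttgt
The Vegfc stretch of 250 bases held 30 CGs, or 12.0 per 100 bases. The Vegfd stretch, printed for 106 bases up to where the GENCODE first exon begins, held 1 CG, or 0.94 per 100 bases. In the table's full windows of 250 bases upstream of the RefSeq start, 94.8% of all 32851 promoters held as few CGs as Vegfc or fewer, and 29.0% held as few as the 2 of Vegfd or fewer; the median was 6.

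Among the 6 genes matched in that table the other windows lay between these extremes. Vegfb had 26 CGs, Angptl2 had 9 and Angptl1 had 6, while Vegfa had 11 at its outer start and 7 at a second start inside the gene. Angpt1, Angpt2 and Angptl4 were not matched. The motif TATAAA, searched on both strands, was found in the window of Vegfd and in no other of the 7 windows, against 12.4% of all promoters. The match lies past the printed Vegfd stretch, within the first exon of GENCODE. The hypoxia motif cores ACGTG and GCGTG, found in 16.6% and 28.2% of all promoters, were both present at the second Vegfa start, and GCGTG also at Vegfb. These motifs were chosen with the windows in view, and a match is a description of the letters only.

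The libraries held 12926651 to 26900320 assigned reads in the PDGFRα- fraction and 13014118 to 35115771 in the PDGFRα+ fraction. Levels are given in CPM, counts per 1000000 reads of the TMM-scaled library size, the scaling of edgeR. Pdgfra was 652 ± 124 CPM (SD, n = 4) in PDGFRα- and 597 ± 69.2 in PDGFRα+ cells (edgeR adjusted p = 0.971), so the transcript of the sorted protein did not separate the fractions. Ltbr was 67.9 ± 27.3 and 64.0 ± 9.21 CPM (adjusted p = 0.991). The CD45 gene Ptprc was 10.4 ± 11.4 and 1.67 ± 0.686 CPM, and the CD31 gene Pecam1 was 11.7 to 15.4 CPM in 3 PDGFRα- libraries but 132 CPM in PDGFRα- library 4. Endothelial transcripts of that library stand apart, and the Angpt2 results are also given without it.

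Of the 9 ligands, 2 fell in PDGFRα+ cells and none rose. Angpt1 was 2.58-fold lower and Angptl1 was 2.23-fold lower, while Vegfa, the general angiogenic factor, had nearly equal means in the fractions. The test was edgeR's quasi-likelihood test on the fractions, with Benjamini-Hochberg adjustment over 15643 genes and a threshold of 0.05. Of all genes, 0.0511% were called lower and 0.192% higher in this fit. When the replicate number entered the fit as a block, as it does in the model behind the authors' deposited comparison, the same 2 ligands were called lower, against 0.933% of all genes lower and 1.34% higher. DESeq2 and limma-voom without the block also called these 2, with 0.653% and 0.0575% of all genes called lower. The authors' deposited table passes Vegfd as lower besides these, and calls 2.52% of its genes lower.

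The log2 fold change was negative for 7 of the 9 ligands, the 2 called ones included, as it was for 7961 of all 15643 genes. Of the 7 ligands not called, Vegfa and Vegfb were positive, and Angpt2 was near 0 with the block. The fold changes had a median of -0.36 without and -0.24 with the block, against -0.01 over all genes in both fits. For 3 of the 9, Angpt1, Angptl1 and Vegfd, every PDGFRα+ library lay below every PDGFRα- library, which was so for 2.36% of all genes. The summed level of the 9 genes ran from 1410 to 1650 CPM in PDGFRα- and from 876 to 1270 CPM in PDGFRα+ libraries, with no overlap. Angptl1, a called gene, fell most in CPM, from a mean of 504 in PDGFRα- to 226 in PDGFRα+ libraries. It weighs heavily in these sums, which are thus not separate from the calls and do not show a fall shared by the 9 genes. In sorted bulk RNA, fewer cells that make a transcript and less of it per cell cannot be told apart.

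**Figure D1:**
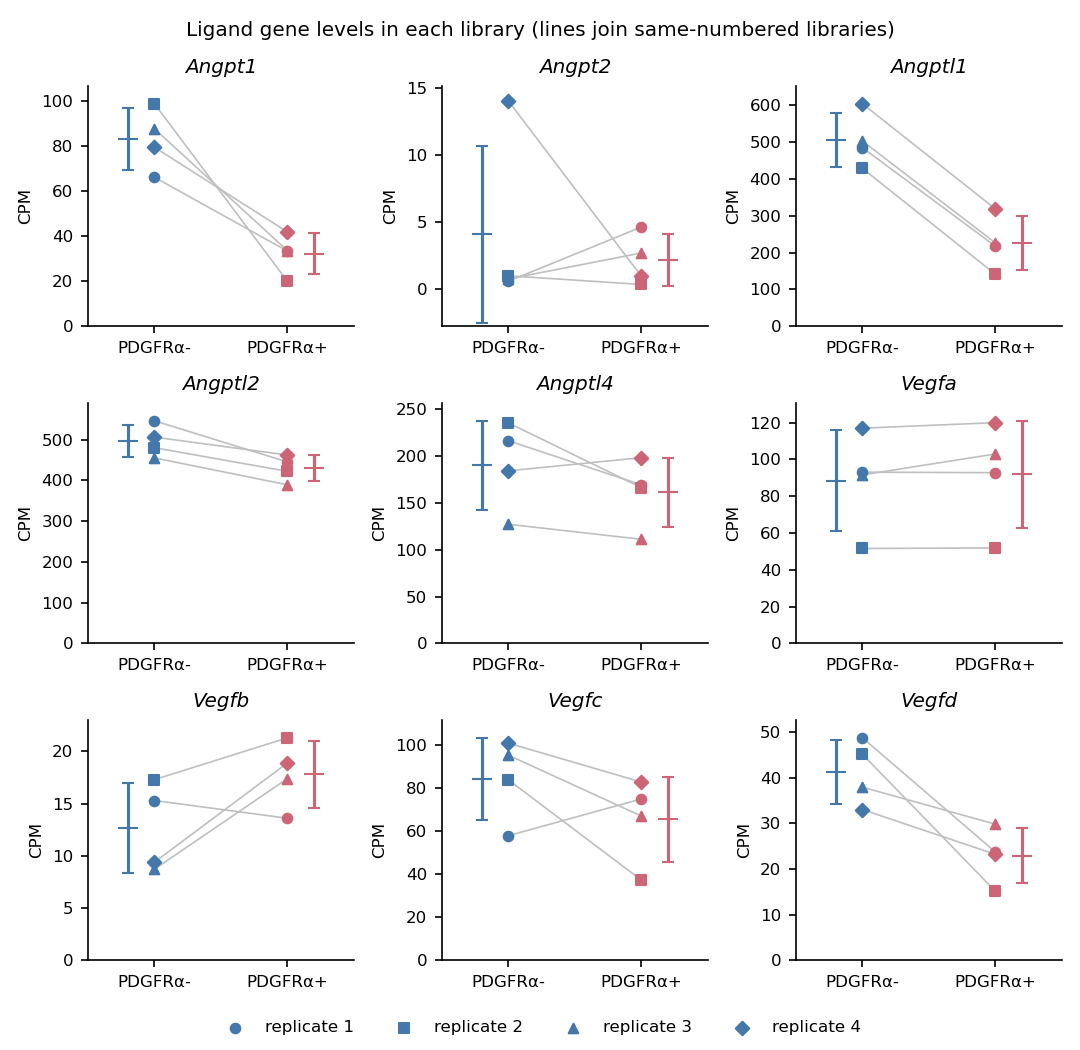
Level of each of the 9 ligand genes in every library, in CPM on axes from 0 or below, with marker shapes and lines for the replicate numbers and the group mean ± SD (n = 4) beside the points. Angpt1, Angptl1 and Vegfd show groups that do not overlap, and Angpt2 shows 1 PDGFRα- library at 14.0 CPM far above the others.

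**Figure D2:**
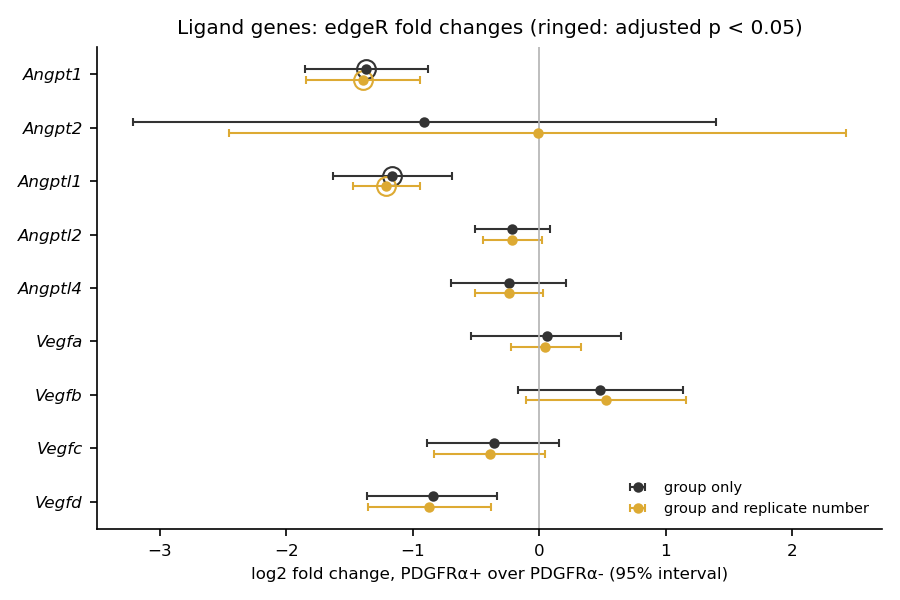
Log2 fold change of PDGFRα+ over PDGFRα- cells for the 9 ligands with 95% confidence intervals from edgeR, fitted without and with the replicate number; a ring marks an adjusted p under 0.05. Angpt1 at -1.37 and Angptl1 at -1.16 lie farthest below 0, and the interval of Vegfa spans 0 in both fits.

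Angpt1 (ENSMUSG00000022309) lies on chromosome 15 from 42424723 to 42676977, on the - strand of GRCm38. It was at 66.2, 98.8, 87.7 and 79.5 CPM in PDGFRα- libraries 1 to 4 and at 33.4, 20.0, 33.6 and 41.9 CPM in PDGFRα+ libraries 1 to 4. The lowest PDGFRα- library thus lay above the highest PDGFRα+ library, and within each replicate number the PDGFRα+ library was the lower one. The means were 83.1 ± 13.8 and 32.3 ± 9.05 CPM (SD, n = 4), a log2 fold change of -1.37 ± 0.23 (SE), with a 95% interval from -1.85 to -0.88 and an edgeR adjusted p of 0.0246. With the block it was -1.39 ± 0.21 (adjusted p = 0.00213), and the authors' deposited table gives -1.40 with an adjusted p of 2.9e-07. Behind these levels stood 1125 to 1966 reads per PDGFRα- library and 489 to 1167 per PDGFRα+ library. The call without the block was lost when PDGFRα- library 2 (adjusted p = 0.11), PDGFRα- library 3 (0.123), PDGFRα+ library 1 (0.0652) or PDGFRα+ library 3 (0.0784) was left out, with fold changes between -1.51 and -1.19 over all 8 omissions. With the block it was lost without number 3, at -1.40 and an edgeR adjusted p of 0.0508.

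Exons of Angpt1 share 737 bases, 14.2% of their length, with Gm17473, an antisense gene that held 0 to 55 reads per library. Whether reads were counted by strand is not stated in the sources, so reads in this overlap may belong to either gene.

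Angpt2, the context-dependent TIE2 ligand, was rare and did not differ detectably between the fractions. It lies on chromosome 8 from 18690263 to 18741562, within the span of Mcph1 on the other strand but with no shared exon. The PDGFRα- libraries held 0.611, 1.01, 0.78 and 14.0 CPM and the PDGFRα+ libraries 4.64, 0.369, 2.71 and 0.966 CPM. The high value of PDGFRα- library 4 rested on 278 reads, against 10 to 20 in the other PDGFRα- libraries, and the groups overlapped. The fitted log2 fold change was -0.91 ± 1.07, with an interval from -3.21 to 1.40 (edgeR adjusted p = 0.97), and -0.01 ± 1.15 with the block. Without PDGFRα- library 4 the value turned to 1.45 (adjusted p = 0.977).

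Endothelial genes were high in the same library. The 14 endothelial markers summed to 1170 CPM in PDGFRα- library 4, against 238 to 287 CPM in the other PDGFRα- libraries and 258 to 381 CPM in the PDGFRα+ libraries. The lower sums came largely from Eng, Tek and Ramp2. In PDGFRα- library 2, with the sum of 238 CPM, these were at 76.5, 80.9 and 52.7 CPM, and every other marker was at 11.7 CPM or less. In PDGFRα- library 4 they were at 101, 92.0 and 41.1 CPM. Cdh5, the endothelial cadherin, was at 0.733, 0, 7.33 and 113 CPM in the PDGFRα- libraries and at 2.29, 0, 26.9 and 21.5 CPM in the PDGFRα+ libraries. The part of endothelial RNA in the Angpt2 values was not tested.

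**Figure D3:**
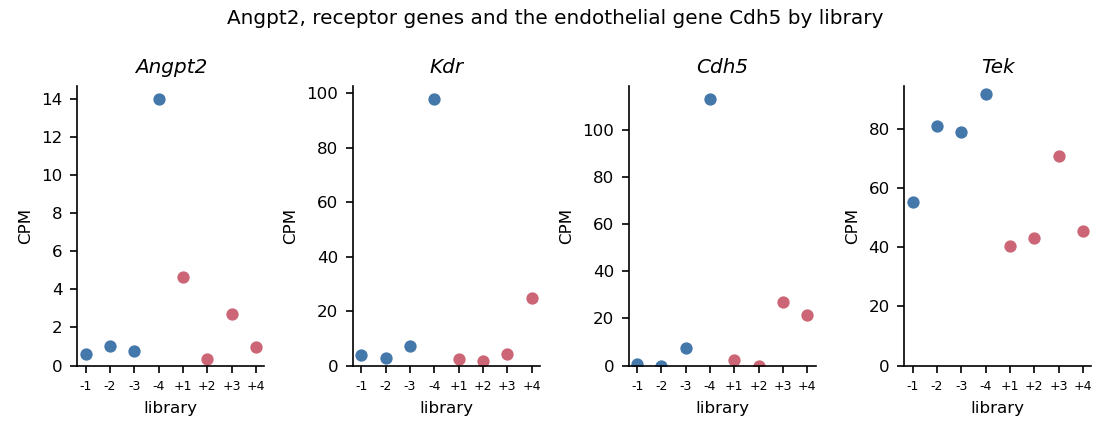
Levels of Angpt2, Kdr, Cdh5 and Tek in CPM in PDGFRα- libraries 1 to 4 (blue, -1 to -4) and PDGFRα+ libraries 1 to 4 (red, +1 to +4). PDGFRα- library 4 stands alone at 14.0 CPM of Angpt2, 97.9 CPM of Kdr and 113 CPM of Cdh5, whereas Tek is at 40.5 CPM or more in every library.

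Angptl1, an orphan angiopoietin-like protein described as acting on endothelial cells, was the most abundant of the 9 transcripts per length in PDGFRα- cells and the second to fall. Angptl1 (ENSMUSG00000033544) lies on chromosome 1 from 156838562 to 156861078, on the + strand. It was at 484, 428, 502 and 603 CPM in the PDGFRα- libraries and at 217, 141, 226 and 318 CPM in the PDGFRα+ libraries, with no overlap between the groups. The means of 504 ± 73.3 and 226 ± 72.5 CPM gave a log2 fold change of -1.16 ± 0.22, with an interval from -1.63 to -0.69 and an edgeR adjusted p of 0.0462. With the block it was -1.21 ± 0.13 (adjusted p = 6.8e-05), and the authors' deposited table gives -1.22 with an adjusted p of 2.3e-18. Without the block the call lay close to the threshold. It was lost when any single library other than PDGFRα+ library 4 was left out, with adjusted p between 0.0159 and 0.186 and fold changes between -1.37 and -0.99. It was also lost with DESeq2's size factors in edgeR (adjusted p = 0.0545) and under a stricter filter on low counts (0.0584). With the block it was kept without each of the 4 numbers, at -1.30 to -1.07.

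Angptl1 sits inside the span of Ralgps2 on the other strand without a shared exon, and Ralgps2 was at 12.1 ± 2.34 and 8.27 ± 3.50 CPM (edgeR adjusted p = 0.919). Its exons share 465 bases with Gm37802, an unverified transcript with 0 reads in all 8 libraries.

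Angptl2, a secreted protein described in inflammation and in the gut stem-cell niche, was abundant and the steadiest of the 9. It lies on chromosome 2 from 33216069 to 33247717 and was at 546, 480, 455 and 506 CPM in PDGFRα- and at 445, 422, 389 and 462 CPM in PDGFRα+ libraries. Its coefficients of variation were 7.85% and 7.37%. The PDGFRα+ library was the lower one within each number, but the groups overlapped, and the log2 fold change of -0.21 ± 0.14 did not pass the test (edgeR adjusted p = 0.895, and 0.482 with the block). The interval from -0.51 to 0.09 bounds the difference. Ralgps1, whose span on the other strand holds Angptl2, was at 44.6 ± 6.32 and 58.1 ± 11.8 CPM (adjusted p = 0.793).

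Angptl4, the lipoprotein lipase inhibitor, lies on chromosome 17 from 33773750 to 33781830. It was at 216, 235, 127 and 184 CPM in PDGFRα- and at 169, 166, 111 and 198 CPM in PDGFRα+ libraries, and library 3 was the lowest in both fractions. The log2 fold change was -0.24 ± 0.21, with an interval from -0.70 to 0.21 (edgeR adjusted p = 0.947, and 0.52 with the block).

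None of the 4 VEGF genes passed the test in either fit, and their values differed in kind. Vegfa was level, Vegfb and Vegfc had overlapping groups, and Vegfd had separated groups at a low level. Vegfa lies on chromosome 17 from 46016993 to 46032369 and was at 93.1, 51.6, 91.6 and 117 CPM in PDGFRα- and at 92.8, 51.9, 103 and 120 CPM in PDGFRα+ libraries. Same-numbered libraries were close to each other, and number 2 was lowest in both fractions. The log2 fold change was 0.06 ± 0.27, with an interval from -0.54 to 0.65 (edgeR adjusted p = 0.995). With the block it was 0.05 ± 0.13, and the interval narrowed to -0.22 to 0.33 (adjusted p = 0.943). The direction was not stable, since the value was -0.13 without PDGFRα- library 2 and -0.10 without PDGFRα+ library 4. Vegfa was the 1 ligand of the 9 that differed between replicate numbers in edgeR's test (adjusted p = 0.00607), as did 4.28% of all genes.

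Vegfb, described in fatty acid uptake and acting on VEGFR1 (gene Flt1), lies on chromosome 19 from 6982473 to 6987651. It was at 15.3, 17.3, 8.73 and 9.40 CPM in PDGFRα- and at 13.6, 21.3, 17.4 and 18.9 CPM in PDGFRα+ libraries. The groups overlapped, and the log2 fold change of 0.48 ± 0.31, with an interval from -0.17 to 1.14, did not pass (edgeR adjusted p = 0.872, and 0.544 with the block).

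Vegfc lies on chromosome 8 from 54077606 to 54187096, and its CG-rich upstream stretch is printed above. It was at 58.0, 83.9, 95.4 and 101 CPM in PDGFRα- and at 75.1, 37.3, 67.1 and 82.9 CPM in PDGFRα+ libraries. The PDGFRα- library was the higher one for numbers 2, 3 and 4 but not for number 1. The log2 fold change was -0.36 ± 0.24, with an interval from -0.89 to 0.16 (edgeR adjusted p = 0.893, and 0.503 with the block).

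Vegfd, with the CG-poor upstream stretch, lies on the X chromosome from 164373378 to 164402650. It was at 48.7, 45.1, 37.9 and 33.0 CPM in PDGFRα- and at 23.7, 15.1, 29.8 and 23.2 CPM in PDGFRα+ libraries. Every PDGFRα+ library was below every PDGFRα- library, though the closest, at 29.8 and 33.0 CPM, were near each other. The means were 41.2 ± 7.06 and 22.9 ± 6.03 CPM, and the log2 fold change was -0.84 ± 0.24, with an interval from -1.36 to -0.33. The unadjusted edgeR p was 0.00343 and the adjusted p was 0.27, and with the block the value was -0.87 ± 0.23 (adjusted p = 0.0602). The authors' deposited table gives -0.88 with an adjusted p of 0.0169, a change of nearly the same size.

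Per length of transcript, the angiopoietin-like genes led in both fractions and Angpt2 came last. In CPM per kilobase of exon, the PDGFRα- order was Angptl1 at 177 ± 25.8, Angptl2 at 79.1 ± 6.21, Angptl4 at 53.8 ± 13.4, Vegfc at 34.5 ± 7.75 and Vegfa at 20.6 ± 6.37. Vegfd at 17.1 ± 2.93, Angpt1 at 16.0 ± 2.64, Vegfb at 7.92 ± 2.67 and Angpt2 at 1.11 ± 1.79 followed on the same scale. Ranges over libraries separated Angptl1 from Angptl2, Angptl2 from Angptl4, Angpt1 from Vegfb and Vegfb from Angpt2. The neighbours from Angptl4 down to Angpt1 overlapped.

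The PDGFRα+ order in CPM per kilobase began with the same 5 genes and differed below them. Angptl1 was at 79.5 ± 25.5, Angptl2 at 68.3 ± 5.03, Angptl4 at 45.5 ± 10.3, Vegfc at 26.8 ± 8.14 and Vegfa at 21.5 ± 6.77. Vegfb at 11.1 ± 2.01 came next, then Vegfd at 9.52 ± 2.50, Angpt1 at 6.20 ± 1.74 and Angpt2 at 0.589 ± 0.521. Here the ranges separated Angptl2 from Angptl4 and Angpt1 from Angpt2, and Angptl1 no longer separated from Angptl2. Angptl1 made up 43.6% of the summed level per kilobase of the 9 genes in PDGFRα- and 29.5% in PDGFRα+ cells.

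**Figure D4:**
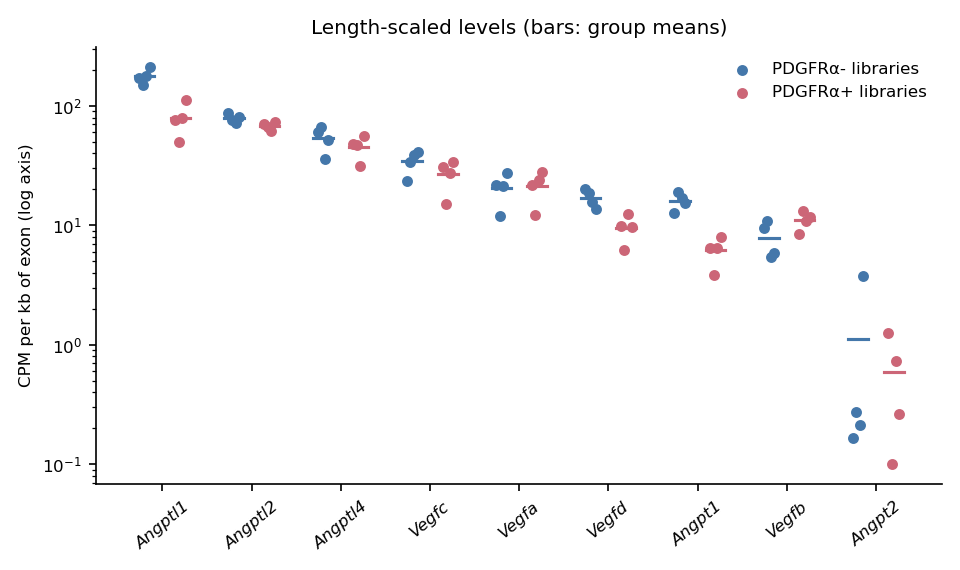
Level of each ligand in CPM per kilobase of exon on a log axis, ordered by the PDGFRα- mean, with 1 point per library and group means as bars. Angptl1 leads at a mean of 177 in PDGFRα- and 79.5 in PDGFRα+ cells, and Angpt2 is lowest in both.

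Ratios within a library were compared for 3 pairs of ligands, on the log2 scale, so that the scaling between libraries cancels. Angpt1 to Vegfa, the vessel-stabilising over the sprouting signal, was -0.49, 0.94, -0.06 and -0.56 in PDGFRα- and -1.47, -1.37, -1.61 and -1.52 in PDGFRα+ libraries. The PDGFRα+ libraries lay within a narrow range below every PDGFRα- library. The difference in means was -1.45, and an exact two-sided permutation test gave p = 0.0286, the smallest that 70 splits allow, or 0.0857 after adjustment over the 3 ratios. It shares the Angpt1 values above and is not separate evidence. Angpt1 to Angpt2 was 6.57, 6.50, 6.66 and 2.50 in PDGFRα- and 2.83, 5.46, 3.59 and 5.32 in PDGFRα+ libraries, a difference in means of -1.26 (exact permutation p = 0.257, adjusted 0.257). PDGFRα- library 4 was far below the other PDGFRα- libraries, and without it the difference was -2.28 (exact permutation p = 0.0857, adjusted 0.129). Vegfc to Vegfd was 1.02 ± 0.59 and 1.49 ± 0.31 (SD, n = 4, exact permutation p = 0.229, adjusted 0.257), so a different response of the related VEGFR3 ligands was not shown.

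The genes most like Angpt1 over the 8 libraries were sought by the root mean square difference of centred log2 CPM. Vldlr, the very-low-density lipoprotein receptor, was nearest at 0.10 log2 units. Adamtsl1 and Gm9843 followed at 0.22, and Slc39a8, a zinc and manganese transporter, and Bend4 at 0.24. None of the genes after Vldlr was called in edgeR without or with the block, and Gm9843 had means of only 2.24 and 0.838 CPM. For Angptl1 the nearest were Apoe, the apolipoprotein E gene, and Pim3, a kinase, both at 0.20. Hpgd, which breaks down prostaglandins, was at 0.22, and Cdkn1c, a cell cycle inhibitor, and Npr1, a natriuretic peptide receptor, were at 0.23. These genes near Angptl1 were called with the block and not without it. Angpt1 and Angptl1 stood 0.26 apart from each other. The measure takes in the difference between the fractions, so it favours genes with a like difference, and shared regulation was not tested.

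Of the 7 receptor genes, Tek, Tie1, Flt1, Kdr, Flt4, Nrp1 and Nrp2, none was called in edgeR without or with the block, nor by DESeq2 or limma-voom. At an unadjusted p under 0.05 there were 1 without and 5 with the block, against 1087 and 1823 of all 15643 genes. Of the 5, Tek, Tie1, Kdr and Flt4 were lower and Nrp1 was higher in PDGFRα+ cells. Tek, the receptor of both angiopoietins, was at 55.2, 80.9, 79.0 and 92.0 CPM in PDGFRα- and at 40.5, 43.1, 70.8 and 45.6 CPM in PDGFRα+ libraries. It was lower in PDGFRα+ cells within each number, with a log2 fold change of -0.62 ± 0.22 (edgeR adjusted p = 0.448, and 0.0651 with the block). The authors' deposited table gives Tek at -0.64 with an adjusted p of 0.0238.

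The VEGF receptors of endothelium were highest in PDGFRα- library 4. Flt1 was at 1.87, 0.302, 24.8 and 216 CPM in PDGFRα- and at 2.03, 2.95, 22.1 and 32.0 CPM in PDGFRα+ libraries. Kdr was at 3.79, 2.87, 7.17 and 97.9 CPM in PDGFRα- and at 2.41, 1.72, 4.36 and 24.7 CPM in PDGFRα+ libraries. For both, library 4 was the highest in each fraction. Kdr was -1.05 with the block (edgeR adjusted p = 0.0919), and the authors' deposited table gives -1.06 with an adjusted p of 0.0331. Flt4, the lymphatic receptor, was at 5.66, 0.0503, 19.8 and 33.4 CPM in PDGFRα- and at 4.61, 0, 4.68 and 11.1 CPM in PDGFRα+ libraries (-1.38 with the block, adjusted p = 0.168). Tie1, an orphan receptor that pairs with TIE2, was between 0.0503 and 31.1 CPM in PDGFRα- and between 0 and 4.61 CPM in PDGFRα+ libraries. Tek, Tie1, Flt1 and Kdr are themselves on the endothelial list and Flt4 on the lymphatic one, and the part of endothelial RNA in these receptor values was not tested. The VEGF co-receptor genes showed less spread between libraries, with Nrp1 at 236 ± 34.9 and 308 ± 69.2 CPM (adjusted p = 0.736) and Nrp2 at 166 ± 21.7 and 193 ± 33.2 CPM (adjusted p = 0.926). Nrp1 was higher in PDGFRα+ cells within each number, at 0.37 with the block (edgeR adjusted p = 0.168). Nrp2 was at 0.21 with the block (edgeR adjusted p = 0.61).

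Among 10 genes that process or bind these ligands, edgeR called 1 higher without the block and 2 with it, and none lower in either fit. Of all genes, 0.192% and 1.34% were called higher in these fits. Without the block DESeq2 called 2 of the 10 and limma-voom called 0. Adamts14, a procollagen N-proteinase related to ADAMTS3, was at 17.1, 23.7, 20.9 and 22.0 CPM in PDGFRα- and at 35.9, 88.2, 52.8 and 53.6 CPM in PDGFRα+ libraries. It rose 2.75-fold, with no overlap, a log2 fold change of 1.46 ± 0.26 and an edgeR adjusted p of 0.0363, or 1.40 ± 0.19 and 7.8e-04 with the block. Without the block the call was lost without PDGFRα- library 1 (adjusted p = 0.0832), 2 (0.093) or 3 (0.136), and without PDGFRα+ library 2 (0.108) or 3 (0.0818). With the block it was kept without each number. Adamts3, which with CCBE1 cleaves the VEGFC precursor into its active form, was at 14.7, 13.5, 14.5 and 14.6 CPM in PDGFRα- and at 28.9, 22.7, 25.2 and 34.8 CPM in PDGFRα+ libraries.

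The groups of Adamts3 did not overlap either, and the share of all genes that were higher without overlap is not given here. Its log2 fold change was 0.96 ± 0.23 (edgeR adjusted p = 0.154). In edgeR it was called only with the block, at 0.94 ± 0.23 (adjusted p = 0.0474), a call lost without any 1 of the 4 numbers (0.0525 to 0.195). DESeq2's test without the block did call Adamts3, at 0.95 (adjusted p = 0.00373). Ccbe1 itself had means of 30.4 and 26.5 CPM (adjusted p = 0.975). Svep1, a matrix protein described in lymphatic growth with the TIE receptors, was at 2020 ± 383 and 1480 ± 279 CPM, a log2 fold change of -0.44 (adjusted p = 0.634, and 0.0505 with the block). The authors' deposited table gives Svep1 at -0.45 with an adjusted p of 0.00263.

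Around ANGPTL4, the lipoprotein lipase system had 10 genes, of which 6 were tested and Apoc2, Apoc3 and Apoa5 held no reads. Vldlr fell in both fits and Lpl rose with the block. Vldlr was at 127 ± 30.0 and 47.7 ± 13.5 CPM, a log2 fold change of -1.41 ± 0.24 (edgeR adjusted p = 0.0271, and 0.028 with the block). Its call was lost without PDGFRα- library 2 or 3 or PDGFRα+ library 1 or 3, and with the block without number 3 (0.167). Lpl, the lipoprotein lipase that ANGPTL4 inhibits, was at 72.9, 74.8, 30.0 and 36.7 CPM in PDGFRα- and at 146, 152, 87.7 and 71.9 CPM in PDGFRα+ libraries. The groups overlapped, while the PDGFRα+ library was the higher one within each number. With the block Lpl rose 2.19-fold, at 1.13 ± 0.15 (adjusted p = 5.0e-04), and this was kept without each number. Without the block it was 1.09 ± 0.34 and did not pass (adjusted p = 0.394), though edgeR without a low-count filter called it (4.3e-05).

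**Figure D5:**
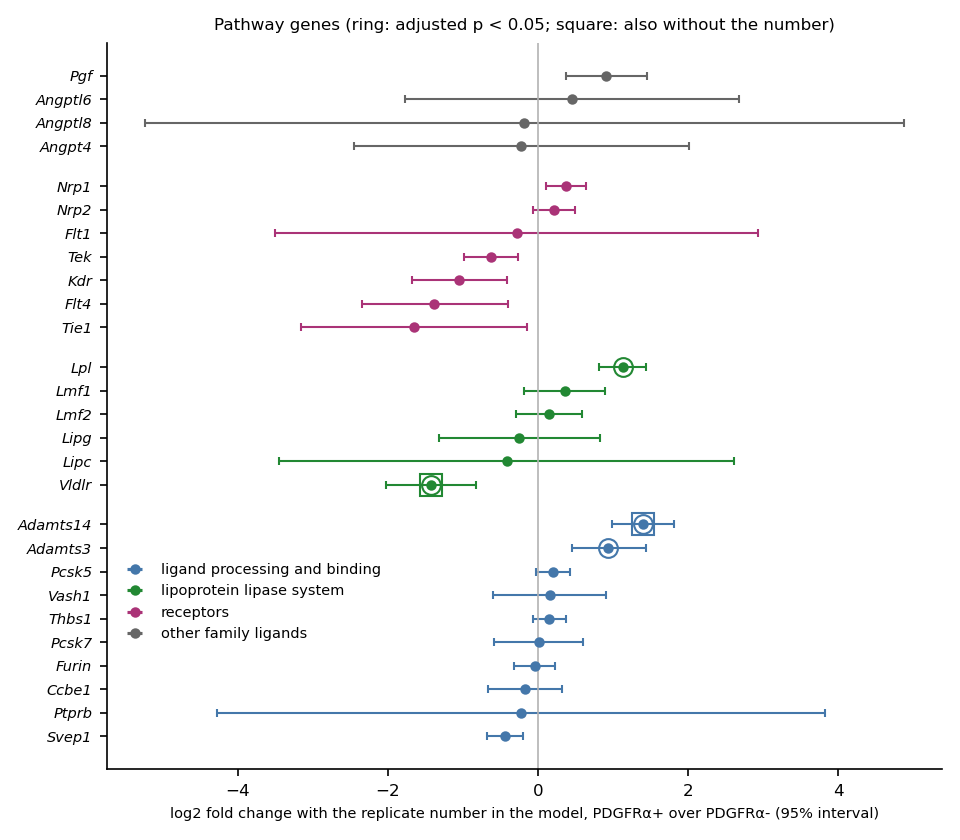
Log2 fold change of PDGFRα+ over PDGFRα- cells for receptors, ligand-processing genes, the lipoprotein lipase system and the other family ligands, from edgeR with the replicate block, with 95% intervals. Rings mark calls in this fit (Adamts14 at 1.40, Lpl at 1.13, Adamts3 at 0.94, Vldlr below 0). Squares mark the 2 also called in the main edgeR fit without the block, Adamts14 and Vldlr. No receptor is marked.

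The other ligands of the families were mostly rare, and none of the 4 tested was called in edgeR without or with the block, nor by DESeq2 or limma-voom. At an unadjusted p under 0.05 there was 1 in each edgeR fit. Pgf, the placental growth factor that binds VEGFR1, was at 22.1, 8.10, 12.8 and 13.2 CPM in PDGFRα- and at 33.7, 20.6, 28.5 and 19.2 CPM in PDGFRα+ libraries. It was higher in PDGFRα+ cells within each number, with a log2 fold change of 0.86 ± 0.32 (edgeR adjusted p = 0.488, and 0.0813 with the block). The authors' deposited table gives Pgf at 0.90 with an adjusted p of 0.0325. Angpt4 was at 2.07 ± 1.26 and 1.87 ± 1.28 CPM, and the means of Angptl6 and Angptl8 were between 0.866 and 2.28 CPM. Angptl7 had too few reads to be tested.

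Vegfa and Angptl4 are known targets of the hypoxia response, so other genes of that response were counted. Of 20 hypoxia genes 19 were tested and none was called in edgeR without or with the block, nor by DESeq2 or limma-voom, with 1 and 4 at an unadjusted p under 0.05 in the edgeR fits, against the 1087 and 1823 of 15643 genes given above. Their median log2 fold change was -0.17 without and -0.26 with the block, against -0.01 over all genes.

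Summed levels of cell type markers varied between libraries, and those of fibroblast markers, mostly collagen reads, did not overlap between the fractions. The 6 fibroblast markers summed to 118000 to 167000 CPM in PDGFRα- and to 87400 to 113000 CPM in PDGFRα+ libraries, without overlap and in the direction of Angpt1, Angptl1 and Vegfd. Most of the sum was Col1a1, Col1a2 and Col3a1, with PDGFRα- means of 44700, 26300 and 64500 CPM. The groups of these 3 did not overlap, as for 2.36% of all genes lower in PDGFRα+, whereas those of Pdgfra, Dcn and Lum did. All 6 log2 fold changes were negative without the block, as were 7961 of all 15643. None of the 6 was called in the main edgeR fit, and 3 had an unadjusted p under 0.05, against 1087 of 15643 genes. DESeq2 called 2 and limma-voom none, with 0.653% and 0.0575% of all genes called lower. Without a low-count filter edgeR on group alone called Col1a1 (adjusted p = 0.0417) and Col1a2 (0.0292). With the block Col1a1, Col1a2 and Col3a1, collagen genes, fell by 0.54, 0.55 and 0.50 on the log2 scale (edgeR adjusted p = 0.0155, 0.0137 and 0.0107), calls lost without number 1 or number 3. Pericyte markers, of cells known to make ANGPT1, summed to 1150 to 1810 CPM in PDGFRα- and 982 to 1450 CPM in PDGFRα+ libraries. Most of this sum was Rgs5, at 718 to 1470 and 561 to 1110 CPM. With the block the pericyte gene Cspg4 rose, at 1.17 (edgeR adjusted p = 0.0402), a call lost without number 1 (0.138) or 3 (0.235). Abcc9, another pericyte gene, fell, at -1.40 (edgeR adjusted p = 0.00527), a call lost without number 3 (0.0871). Without the block neither Cspg4 nor Abcc9 passed in the main edgeR fit (0.113 and 0.183), and limma-voom called neither. Both were called without the block by DESeq2's test (adjusted p = 0.0164 and 0.0177). The same held for edgeR without a low-count filter (8.9e-05 and 6.3e-06). Higd1b held no reads. Smooth muscle markers summed to 346 to 1730 and 424 to 1390 CPM. The part of these cell types in the results on the ligands was not tested.

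Among markers of cells outside the gates, the endothelial sums of 238 to 1170 CPM in PDGFRα- and 258 to 381 CPM in PDGFRα+ libraries are given above. Eng, Tek and Ramp2 were the highest of these markers in every library other than PDGFRα- library 4. Leukocyte markers summed to 27.1 to 111 CPM in PDGFRα- and 20.1 to 36.2 CPM in PDGFRα+ libraries, epithelial markers to 24.5 to 48.7 and 13.0 to 30.0 CPM, and lymphatic endothelial markers to 27.6 to 239 and 15.0 to 86.3 CPM. Glial markers reached 17.4 and 18.3 CPM and mesothelial markers 4.99 and 13.4 CPM.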

How the data were processed

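RNA was measured in 8 libraries, 4 per sorted fraction, prepared with a stranded total RNA kit, per the labels. Per the submitters' processing notes, cutadapt 3.4, STAR 2.7.3a, featureCounts 2.0.1 and DESeq2 were used with GRCm38; neither their settings nor the strand setting of the counting is stated. The deposited table holds raw counts per gene, which were used here, with the authors' log2 fold changes, p-values and adjusted p-values, which come from a model matched by DESeq2 on replicate number and group (100% of 29254 genes within 0.001, against 1.12% for group alone). Another 8 columns of normalized values per sample were not used.

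Counts were tested with edgeR 4.0.16 (quasi-likelihood, robust, TMM, filterByExpr; R 4.3.3) on group alone, after a check on simulated data. Alternatives were the replicate number as a block, DESeq2 1.42.0, limma-voom (limma 3.58.1), other size factors and filters, and leaving out each library. The labels do not say what a number shares. Deviations from the group means correlated at 0.023 to 0.25 between same-numbered libraries, below 0.1 for number 3. In edgeR's test of the number, 669 of 15643 genes, or 4.28%, differed between numbers at an adjusted p under 0.05. Same-numbered libraries were thus alike for some genes, but the labels do not establish the numbers as pairs. The block is printed because the authors' model has it. CPM used TMM-scaled sizes, and ratios a prior count of 2. Lengths and positions are from GENCODE M21, in which 53620 of 53801 IDs were found. No pair of libraries had identical counts. Where a symbol of a list had 2 rows, the one with most counts was used (3 symbols).

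Genes named are the 9 ligands, the receptors, the other family ligands, list genes called with or without the block, the 5 genes most like Angpt1 and Angptl1, overlapping genes, and genes of the labels and gates. Ccbe1, Svep1, Cdh5, Higd1b and list genes without reads were named in addition, after their values were seen. The members and lists were chosen with earlier results of these data known. Some results of the lists are not reported here.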

Additional observations from a re-analysis of the deposited data

Results flagged for a closer look

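In 8 of 50 sets of 4 libraries examined, 1 library lay far from the other 3 for the range they spanned; chance does this in about 1 of 20 sets, and sets that share genes or libraries are not independent. In PDGFRα- library 4, Angpt2 was at 14.0 CPM (0.611 to 1.01 in the others), Tie1 at 31.1 CPM (0.0503 to 3.43), Flt1 at 216 CPM (0.302 to 24.8), Kdr at 97.9 CPM (2.87 to 7.17) and the summed endothelial markers at 1170 CPM (238 to 287). In PDGFRα+ library 4, Kdr was at 24.7 CPM (1.72 to 4.36) and the summed mesothelial markers at 13.4 CPM (0.041 to 1.23). In PDGFRα+ library 3, Tek was at 70.8 CPM (40.5 to 45.6).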

How the results depend on the processing

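On group alone edgeR called 38 genes, and 355 with the replicate block. Without a low-count filter it called 277 and with DESeq2's test 270; leaving out 1 library gave 7 to 49, and 196, 281, 99 and 300 with the block and without number 1, 2, 3 or 4. Of the 9 ligands 2 were called, 1 with DESeq2 size factors, 1 with at least 1 CPM in at least 4 libraries, 0 to 2 without 1 library, and 1 to 2 with the block and without 1 number. Angptl1 missed the threshold at -1.17 with DESeq2 size factors and at -1.17 under the stricter filter, and ranged from -1.37 to -0.99 without 1 library; Angpt1 ranged from -1.51 to -1.19, and from -1.55 to -1.09 with the block, where it was -1.40 (adjusted p = 0.0508) without number 3. Angpt2 turned to 0.11 with limma-voom, 1.45 without PDGFRα- library 4, and 0.76 and 1.22 with the block without number 2 or 4; without 1 library it ranged from -1.59 to 1.45. Vegfa turned to -0.13 without PDGFRα- library 2 and -0.10 without PDGFRα+ library 4, in a range up to 0.25. The cause was not tested. Of 161 alternative fold changes of the 9 ligands, 141 kept direction and side of the threshold, 14 lost the call and 6 reversed. Only Angpt1 and Angptl1 had a call to lose, so the 14 are all theirs. The 141 include genes that were never called. Leaving out 1 library without the block lost the call in 4 of 8 runs for Angpt1 and in 7 of 8 for Angptl1. Leaving out 1 number with the block lost it in 1 of 4 and 0 of 4 runs. The 3 ratios kept direction under each alternative run, and none passed after adjustment in the main or any alternative run. A single ratio could not have passed. Its smallest exact permutation p of 0.0286, also with 4 against 3, becomes 0.0857 over the 3 ratios, and paired sign flips cannot go below an exact p of 0.125. Depth limits Angpt2 most, at 9 to 278 reads per library.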
